A study of Mus musculus with 2 samples.

Results

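The genes of the proteasome are described here in mouse megakaryocyte-erythroid progenitors (MEP), bone marrow cells named for the red cell and megakaryocyte lineages. They are 46 of the 21474 protein-coding genes in the deposited gene tables. Members were chosen by name alone, as protein-coding genes whose symbol starts with Psma, Psmb, Psmc, Psmd, Psme or Psmg and a digit. The immune catalytic subunits Psmb8, Psmb9 and Psmb10 were left out of that rule and serve below for comparison. The study sequenced total RNA depleted of ribosomal RNA, from 1 group of 2 libraries (replicates 1 and 2) with no other condition. The cells were primary MEP from male adult C57BL/6J mice aged 5 to 6 weeks, and the labels list no treatment. The ScriptSeq kit was used on 100 ng of RNA per library, and the labels give size ranges of 200 to 1000 (replicate 1) and 215 to 1000 (replicate 2), with no unit. The libraries have separate biosample entries but share 1 donor entry, so nothing in the labels says that they came from separate mice, and their spread may be technical.

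The proteasome degrades proteins tagged with ubiquitin. Its core particle is a barrel of outer alpha rings, which gate the entrance, and inner beta rings, which hold the cutting sites. A regulatory particle on the end of the barrel binds, unfolds and feeds in the substrate, through a base with a ring of ATPases and a lid that removes ubiquitin. In red cell development the proteasome removes surplus globin chains and helps to clear proteins as the cell matures. Of the 46 genes, 14 encode the alpha and beta subunits of the core particle (Psma1 to Psma7, Psmb1 to Psmb7) and 17 encode subunits of the regulatory particle. The other members are 5 genes of activators that can cap the core, 4 core chaperones (Psmg1 to Psmg4), 3 base chaperones (Psmd5, Psmd9, Psmd10), and the tissue-restricted subunits Psma8 (testis) and Psmb11 (thymus). The last is Psmc3ip, which the symbol rule takes but which encodes a factor of meiotic recombination and no subunit of the proteasome.

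Replicate 1 held 39919858 expected counts over the Ensembl gene rows and replicate 2 held 48043009. An expected count is an estimated, not normalized, number of reads or fragments, and TPM is transcript abundance scaled to a fixed sum over all rows of the table. Nuclear protein-coding genes took 25.5% of the TPM of replicate 1 and 20.6% of that of replicate 2. All 6 MEP markers (Gata1, Klf1, Gfi1b, Tal1, Epor and Kit) were detected, with a sum of 170 TPM in replicate 1 and 156 TPM in replicate 2. Summed TPM of neutrophil markers was 50.5 in replicate 1 and 114 in replicate 2, of NK and cytotoxic cell markers 7.01 and 14.3, of T and B cell markers 0.69 and 4.19, of macrophage markers 0.98 and 1.6, and of stem and multipotent cell markers 22.5 and 4.01. Cd3e and Adgre1 had 0 counts in both libraries, but other markers of the same lists were detected: Cd3g had 12 counts in replicate 1 and 89 in replicate 2, Cd79a 0 and 157, Cd68 83 and 95, and Csf1r 25 and 120. In such bulk RNA, fewer cells of a type and less RNA per cell cannot be told apart.

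Promoters are shown first, for the sequences that the proteasome genes shared. RefSeq windows (build GRCm38.p6, from 250 bases before to 50 bases after an annotated start) were at hand for 38 of the 46 members, in 41 windows. No window was at hand for Psma8, Psmb1, Psmb2, Psmb7, Psmc3, Psmd3, Psmd7 and Psmg2. Letters of 6 motifs were searched on both strands, and a match is a description of the letters, not evidence of binding. The ETS core CCGGAAG, bound by factors of the ETS family, was present in 15 of the 38 members (39.5%). It was present in 27.1% of 2896 protein-coding genes at a mean TPM of 10 or more, in 13.5% of 16317 protein-coding genes and in 8.9% of all 32851 windows. This was the largest of the 6 gaps to all protein-coding genes, although much of it was shared with other genes at that TPM. In 8 core or regulatory particle genes a match begins within 50 bases before a RefSeq start. Their windows are printed here 5′ to 3′ on the gene's strand, each with 10 bases on both sides. The Psmc2 window belongs to an alternative RefSeq start that lies inside the annotated gene (chr5, 21785283 to 21803787). At the other RefSeq start of Psmc2 the match begins farther away, at -84, and is not printed. Capitals mark the motif, which reads CTTCCGG where it lies on the other strand.
Psma6, chr12:55398813-55398839, plus strand: cgccggtgctCCGGAAGcagtagccat
Psmc1, chr12:100110164-100110190, plus strand: ggtggatgcaCTTCCGGcggtggcgat
Psmc2, chr5:21786713-21786739, plus strand: cgcggagctaCTTCCGGtggggaagag
Psmd2, chr16:20651616-20651642, plus strand: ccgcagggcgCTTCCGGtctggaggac
Psmd6, chr14:14120974-14121000, minus strand: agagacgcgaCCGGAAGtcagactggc
Psmd11, chr11:80428594-80428620, plus strand: gagggcgggtCTTCCGGgtgtgtgttt
Psmd12, chr11:107479501-107479527, plus strand: gagcgggcgaCTTCCGGtgcgagtgac
Psmd13, chr7:140882378-140882404, plus strand: gcccgcggtgCCGGAAGtgagcgagca

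The antioxidant response element is the site of Nfe2l1 and Nfe2l2, factors that raise proteasome genes in mammalian cells when the proteasome is inhibited or under oxidative stress. Its core in the stricter form TGACNNNGC was present in 6 of the 38 members (15.8%), against 18.4% of genes at a mean TPM of 10 or more and 15.1% of all protein-coding genes. The members' share therefore lay between these backgrounds. The looser form TGANNNNGC, which includes the stricter one, was present in 22 members (57.9%), against 48.4% of genes at that TPM. Of the catalytic subunits with a window, Psmb5 and Psmb6, both held the stricter form within 50 bases before the start, and these are printed with the motif in capitals.
Psmb5, chr14:54618024-54618052, minus strand: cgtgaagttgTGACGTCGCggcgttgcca
Psmb6, chr11:70525338-70525366, plus strand: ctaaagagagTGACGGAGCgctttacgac
The core of nuclear respiratory factor 1 (GCGCA, any base, GCGC) was present in 7 members (18.4%), against 15.8% of genes at a mean TPM of 10 or more. CCAAT was present in 14 members (36.8%), against 44.4% of those genes, and the E-box CACGTG in 3 (7.9%), against 13.3%. Psmc6, Psmd12 and Psme4 held both the ETS core and the stricter antioxidant core.

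Most proteasome genes were expressed at a moderately high level in MEP. Both libraries reached a TPM of 1 for 44 of the 46 members, against 39.4% of all protein-coding genes. Both reached a TPM of 10 for 39, against 14.8% of all protein-coding genes. The members' median TPM was 51.5 in replicate 1 and 44.0 in replicate 2, and that of the 31 core and regulatory particle subunits was 60.1 and 54.0. For protein-coding genes whose mean TPM was 1 or more, the median was 8.06 in replicate 1 and 6.54 in replicate 2. The members held 0.608% of the expected counts of replicate 1 (242536 counts) and 0.623% of those of replicate 2 (299227 counts).

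**Figure D1:**
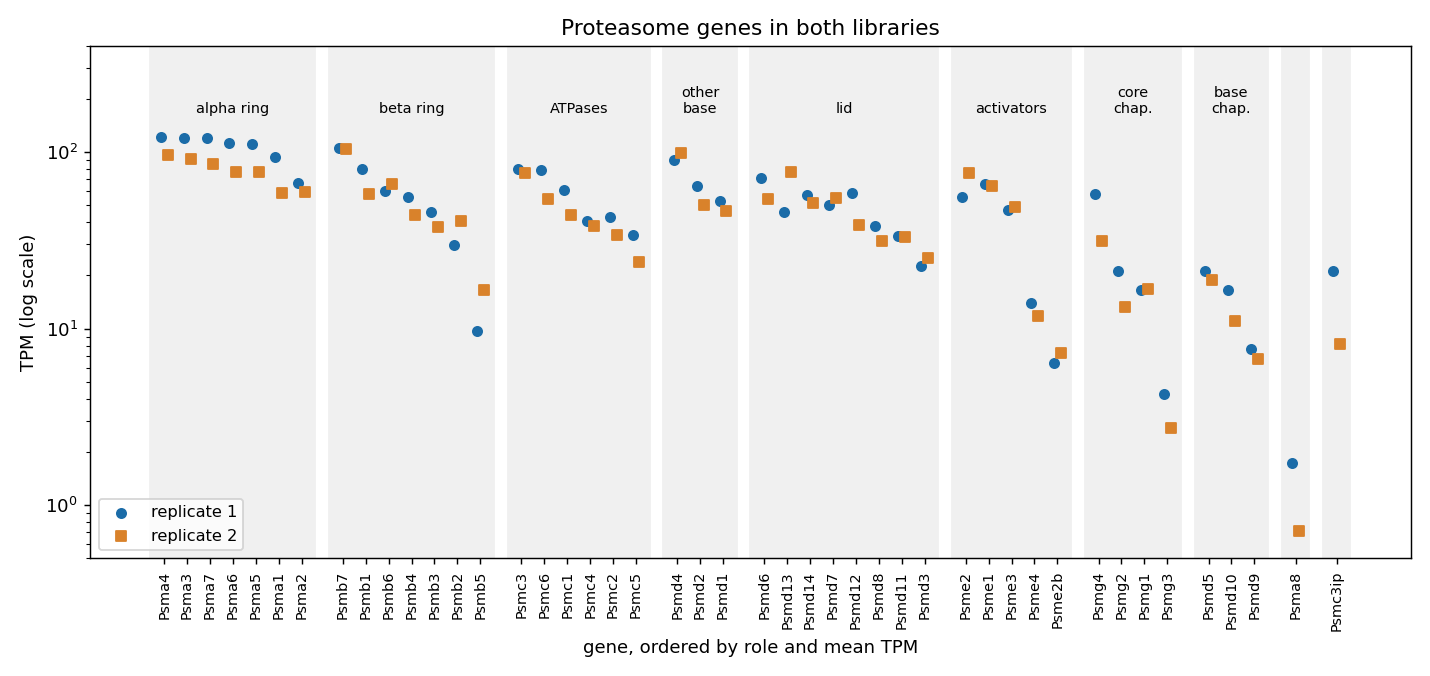
TPM (log scale) of the 45 detected proteasome genes in replicate 1 (circles) and replicate 2 (squares), grouped by role (chap., chaperones) and ordered by mean TPM, with Psma8 and Psmc3ip alone at the right. The alpha ring genes lie close together at the top, and Psmb5 is the lowest gene of the core particle in both libraries (9.7 and 16.5).

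The alpha ring genes formed a tight group in TPM over all transcripts. Psma4, Psma3 and Psma7 were the highest of them in both libraries. Psma4 (ENSMUSG00000032301.9, mm10 chromosome 9, 54950790 to 54958030) had 123 TPM in replicate 1 and 96.8 TPM in replicate 2, the highest mean of all members. Psma2 had 66.6 and 59.2, and Psma1 had 93.9 and 58.9, so these 2 were the lowest. The highest alpha ring gene stood 1.84 times above the lowest in replicate 1 and 1.64 times in replicate 2. The SD of log2 TPM over the 7 genes was 0.32 in replicate 1 and 0.29 in replicate 2. Both the rank of Psma3 and the narrow range rest on transcripts of Psma3 that are not annotated as coding. On coding transcripts only, Psma3 was the lowest alpha ring gene, at 54.1 TPM in replicate 1 and 34.3 TPM in replicate 2, and the range was 2.24-fold and 2.82-fold.

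The beta ring genes, which include the cutting subunits, had a lower median and were more uneven, in large part through Psmb5. Their median TPM was 55.9 in replicate 1 and 43.9 in replicate 2, against 112 and 77.1 for the alpha ring. The log2 ratio of the alpha ring median over the beta ring median was 1.00 in replicate 1 and 0.81 in replicate 2, a mean of 0.91 ± 0.13 (SD, n = 2). The range within the beta ring was 10.9-fold in replicate 1 and 6.30-fold in replicate 2, and the SD of log2 TPM was 1.14 and 0.82. Psmb7, the subunit with trypsin-like activity, was the highest, with 106 TPM in replicate 1 and 104 TPM in replicate 2. Psmb5, the subunit with chymotrypsin-like activity and the main target of bortezomib, was the lowest. The next lowest was Psmb2 in replicate 1 (29.6) and Psmb3 in replicate 2 (37.8), so much of the range rests on Psmb5. On coding transcripts only, the beta ring range was 10.4-fold in replicate 1 and 5.27-fold in replicate 2, against 2.24-fold and 2.82-fold for the alpha ring.

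Psmb5 (ENSMUSG00000022193.6, mm10 chromosome 14, 54614119 to 54618022, minus strand) had 9.7 TPM in replicate 1 and 16.5 TPM in replicate 2. These rest on 574 counts in replicate 1 and 1429 in replicate 2. It ranked last of the 31 core and regulatory particle genes in both libraries, although on coding transcripts only Psmd13 was lower in replicate 2 (8.01). The next gene up was Psmd3, at 22.6 in replicate 1, and Psmc5, at 23.8 in replicate 2. Since the subunits of the barrel assemble in equal numbers, the RNA levels of Psmb5 and its ring partners were set side by side. The log2 ratio of Psmb5 over Psmb6 was -2.63 in replicate 1 and -2.0 in replicate 2, and over Psmb7 it was -3.45 and -2.66. The deposited transcript tables give Psmb5 a single transcript, so its value does not depend on a division between isoforms. Exons of the microRNA gene Mir686 overlap Psmb5 on the same strand, and how the authors divided reads there is not stated.

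At the catalytic positions the standard subunits can be replaced by immune subunits, which are typical of blood cells and of cells that met interferon. At the beta5 position Psmb5 (9.7 and 16.5) was below its immune counterpart Psmb8, which had 48.5 TPM in replicate 1 and 18.5 TPM in replicate 2. At the beta1 position the order was the reverse, with Psmb6 at 60.1 and 65.7 and Psmb9 at 26.1 and 12.2. At the beta2 position Psmb7 (106 and 104) far exceeded Psmb10 (7.65 and 4.35). The immune gene thus held 83.3% of the TPM of its pair in replicate 1 and 52.9% in replicate 2 at beta5, 30.3% and 15.6% at beta1, and 6.73% and 4.02% at beta2. The order beta5, beta1, beta2 was the same in both libraries. The position with the most immune RNA was also the one whose standard gene was the lowest.

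**Figure D2:**
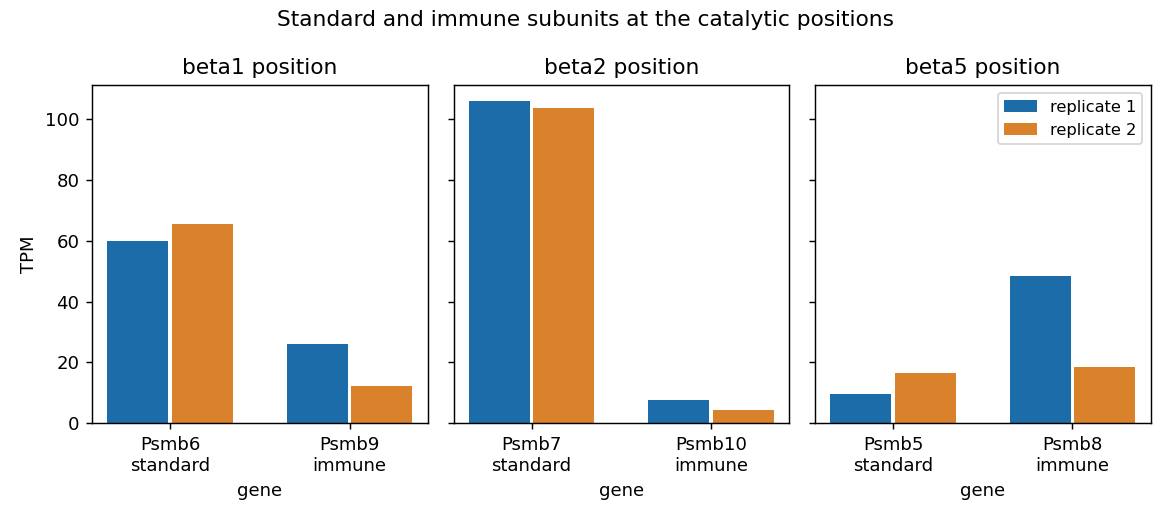
TPM of the standard and the immune subunit genes at each of the 3 catalytic positions of the beta ring, with 1 bar for each library. Psmb6 and Psmb7 exceed Psmb9 and Psmb10 in both libraries, while Psmb5 lies below Psmb8 in both, at 16.5 against 18.5 in replicate 2.

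Of the ratios between groups of proteasome genes, that of standard to immune subunits had the widest spread between the libraries. Summed over the 3 positions, the standard genes exceeded the immune genes 2.14-fold in replicate 1 and 5.31-fold in replicate 2, a log2 ratio of 1.75 ± 0.93 (SD, n = 2). Relative to the median of all genes, the log2 ratio of replicate 2 over replicate 1 was 0.98 for Psmb5, 0.40 for Psmb6 and 0.24 for Psmb7. It was -1.07 for Psmb8, -0.77 for Psmb9 and -0.42 for Psmb10, so the standard genes lay above 0 and the immune genes below. Replicate 2, which had less immune subunit RNA, also had higher summed TPM of T and B cell, NK cell and neutrophil markers and a lower sum of stem and multipotent cell markers, but the members of each list did not all move with its sum. Among the NK cell markers Gzma had 0 TPM in replicate 1 and 9.03 TPM in replicate 2, while Nkg7 had 7.01 and 5.02. Among the neutrophil markers S100a8 had 30.7 and 68.2, while Elane had 0.39 and 0.05. Most of the difference in the stem cell sum lay on Cd34, at 18.3 TPM in replicate 1 and 1.44 TPM in replicate 2, while Mecom had 1.74 and 1.89. Of the 4 T and B cell markers, 3 were at 0 in replicate 1 and 1 in replicate 2. The part of these cells in the result was not tested.

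The regulatory particle genes had a lower median than the core genes, a gap that lay in the alpha ring. Their median TPM was 53.0 in replicate 1 and 46.2 in replicate 2, and that of the 14 core genes was 87.1 and 62.4. The log2 ratio of the core median over the regulatory median was 0.72 in replicate 1 and 0.44 in replicate 2, a mean of 0.58 ± 0.20 (SD, n = 2). Taken by ring, only the alpha genes (medians 112 and 77.1) stood well above the regulatory genes. The beta genes (medians 55.9 and 43.9) were close to them, slightly higher in replicate 1 and slightly lower in replicate 2. On coding transcripts only, the beta genes were slightly higher in both libraries (51.6 against 50.1, and 43.7 against 40.7). The 6 ATPases that unfold substrates had TPM from 34.1 (Psmc5) to 79.8 (Psmc3) in replicate 1, and from 23.8 to 76.6, in the same genes, in replicate 2. Psmd4, a receptor for ubiquitin chains in the base, was the highest regulatory gene, at 90.2 in replicate 1 and 98.5 in replicate 2. Psmd1 and Psmd2, the large scaffolds of the base, had 53.0 and 64.3 in replicate 1 and 46.2 and 50.1 in replicate 2. Among the 8 lid genes, Psmd14, the enzyme that removes ubiquitin chains, had 57.3 in replicate 1 and 51.8 in replicate 2. The lowest lid gene, Psmd3, had 22.6 and 25.2, but on coding transcripts only Psmd13 was lower in both libraries (19.5 and 8.01).

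The levels of the 31 subunits of the core and regulatory particles were less spread than those of most other complexes examined. The SD of their log2 TPM was 0.80 in replicate 1 and 0.65 in replicate 2. It was 0.67 and 0.55 for the 8 genes of the CCT chaperonin, 1.04 and 0.96 for 77 cytosolic ribosomal protein genes, 1.27 and 1.09 for 14 genes of the translation factor eIF3, and 1.24 and 1.07 for 10 genes of the COP9 signalosome, a relative of the lid. The lists were not built alike, which can widen the spread of some. The particle list leaves out the alternative subunits (Psma8, Psmb11 and the immune genes). The COP9 list holds both Cops7a and Cops7b, and the eIF3 list both Eif3j1 and Eif3j2. Cops7b (4.6 and 4.1 TPM) and Eif3j1 (11.5 and 10.1) were the lowest genes of their lists. No test was made of these differences, since the genes of a list are not replicates. The particle subunits' median (60.1 in replicate 1 and 54.0 in replicate 2) lay above that of the COP9 signalosome (29.9 and 25.4). It lay below those of eIF3 (72.4 and 67.8), CCT (146 and 122) and the ribosomal proteins (646 and 497).

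**Figure D3:**
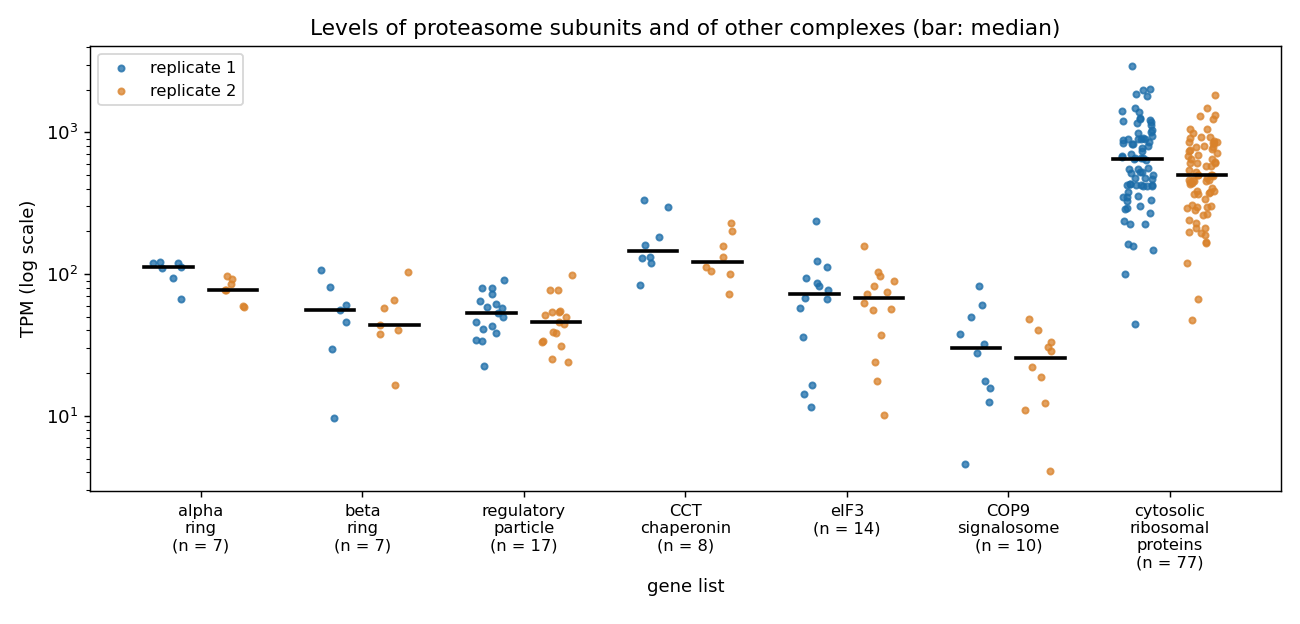
TPM (log scale) of each gene of the alpha ring, the beta ring and the regulatory particle, and of 4 other complexes, in both libraries, with horizontal bars at the medians. The alpha ring points span less than the points of any other list shown, and the lowest beta ring point is Psmb5.

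The activators replace the regulatory particle on some barrels. PA28 alpha (Psme1) and PA28 beta (Psme2), a pair that responds to interferon, had similar levels. Psme1 had 66.4 TPM in replicate 1 and 64.2 TPM in replicate 2, and Psme2 had 55.5 and 76.0. The nuclear activator PA28 gamma (Psme3) had 46.9 and 48.6, and PA200 (Psme4), known for a role in the breakdown of histones, had 14 and 11.8. The log2 ratio of the mean of Psme1 and Psme2 over Psme3 was 0.38 in replicate 1 and 0.53 in replicate 2, a mean of 0.45 ± 0.11 (SD, n = 2). On coding transcripts only it was 0.87 and 0.08, a mean of 0.47 ± 0.56, so the spread between the libraries depended on the transcripts counted. Over Psme4 the log2 ratio was 2.34 ± 0.32, and 2.01 ± 0.11 on coding transcripts only. Psme2b, a near copy of Psme2 on another chromosome, had 6.35 TPM in replicate 1 and 7.23 TPM in replicate 2. The values of these copies are uncertain. Their expected counts were fractions (3704.05 and 355.95 in replicate 1, 5926.93 and 594.07 in replicate 2), but the pair's sums were whole numbers, 4060 and 6521. The division of reads between the copies limits both values. In all, 10 members had expected counts that were not whole, at a tolerance of 0.005: Psma3, Psma4, Psma5, Psmb3, Psmc1, Psmd1, Psmd2, Psmd11, Psme2 and Psme2b.

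The assembly chaperones, which build the particle and leave it, were lower than the subunits. The median TPM of the core chaperones was 18.9 in replicate 1 and 15.0 in replicate 2, and that of the base chaperones was 16.5 and 11.03. Psmg4 stood apart, at 57.9 in replicate 1 and 31.3 in replicate 2, and Psmg3 was the lowest, at 4.28 and 2.74. Psmg3 and Psmg4 act as a pair in the cell, and the TPM of Psmg4 exceeded that of Psmg3 13.5-fold in replicate 1 and 11.4-fold in replicate 2. The gap was smaller in expected counts, at 1561 against 308 in replicate 1 and 1312 against 264 in replicate 2. TPM divides counts by an effective length, which was 295 and 312 bases for Psmg4 and 788 and 716 for Psmg3. Of the tissue-restricted subunits, Psma8 had 233 counts in replicate 1 and 140 in replicate 2, at a TPM of 1.74 and 0.71. Its somatic counterpart Psma7 exceeded it 69.1-fold in replicate 1 and 120-fold in replicate 2. Psmb11 had 0 counts in both libraries, which allows a TPM of up to 0.00817 in replicate 1 and 0.00555 in replicate 2, from 3 counts each and covering counting error only.

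The members as a whole moved with the other genes between the libraries. The median log2 ratio of replicate 2 over replicate 1, with 1 added to each TPM, was -0.27 over 9046 protein-coding genes at a mean TPM of 1 or more. The 45 members at that level had the same median of -0.27, and 23 of them lay above the median of all genes, against 50.0% of all genes. Relative to that median, 4 members were more than 1.5-fold higher in replicate 2 (Psmb2, Psmb5, Psmd13 and Psme2), against 10.7% of all genes. Lower by the same fold were 2 members, Psmc3ip and Psmg4, against 10.5% of all genes. In either direction this made 6 of 45 members, against 21.2% of all genes, and no test was made of that difference. The members had a higher median TPM than these genes, and no background of similar level was set beside them. The part of level in that difference was not tested. With 1 library on each side there is no replicate check of such a difference. Pearson's r of log2(TPM + 1) between the libraries was 0.97 over the 46 genes (Spearman's rho 0.91), and 0.95 (0.93) over the 9046 genes, as a description across genes that share libraries.

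**Figure D4:**
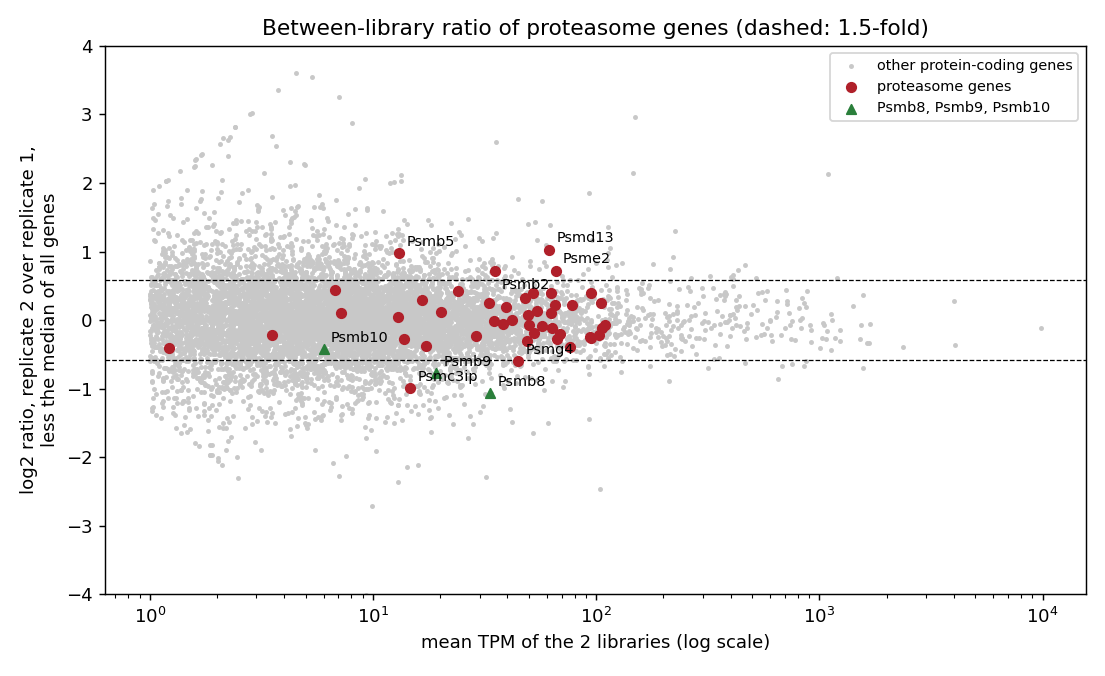
Log2 ratio of replicate 2 over replicate 1 with 1 added to each TPM, less the median of all genes, against mean TPM (log scale), for protein-coding genes at a mean TPM of 1 or more. Most proteasome genes lie between the dashed lines of 1.5-fold, 6 of 45 lie outside, and the immune subunit genes lie below 0.

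Psmb2 and Psmb5 differed in the same way on every scale tried. Psmb2, a structural beta subunit, had 29.6 TPM in replicate 1 and 40.6 TPM in replicate 2, on 1718 and 3409 counts. Counts scaled by TMM, a normalization that needs no gene length, gave a log2 ratio of 0.76 for Psmb2 and of 1.04 for Psmb5, with a median of 0.01 over all genes. For the other members beyond 1.5-fold the call depended on the scale. Psmd13, a lid subunit, had a relative log2 ratio of 1.03 in TPM and of 0.17 in TMM-scaled counts. Psme2 had 0.72 and 0.45, and Psmg4 had -0.60 and -0.46. Psmc3ip had -0.99 and -0.62, but -0.08 in the TPM of its coding transcripts only. Psme3, at 0.32 in TPM, was at 0.77 in TMM-scaled counts. Its counts were 7394 in replicate 1 and 14700 in replicate 2. The effective length, by which TPM divides the counts, was 1727 bases in replicate 1 and 2251 in replicate 2.

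Psmd13 (ENSMUSG00000025487.10, mm10 chromosome 7, 140881968 to 140898643) shows how a single short transcript entered a gene's level. Its TPM was 45.5 in replicate 1 and 77.6 in replicate 2, on 4683 and 6139 counts. The effective length that the table used was 1126 bases in replicate 1 and 588 in replicate 2. In replicate 2, 42.6% of its TPM (33.1) lay on a transcript of 123 bases that carried 6.87 expected counts, and in replicate 1 that transcript had 0. Summed over coding transcripts only, Psmd13 had 19.5 TPM in replicate 1 and 8.01 TPM in replicate 2, a relative log2 ratio of -0.93, opposite in sign to that of the whole gene. The deposited intervals of its TPM, whose level is not stated, ran from 44.3 to 63.4 in replicate 1 and from 45.5 to 118 in replicate 2, and overlapped. The deposited intervals of the libraries did not overlap for 36 of the 45 members, against 76.8% of all genes.

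Most members were read mainly as coding transcripts. The median share of a member's TPM on transcripts annotated as coding, among its annotated transcripts, was 97.7% in replicate 1 and 98.7% in replicate 2. Over the 9046 protein-coding genes at a mean TPM of 1 or more, which include genes with a single transcript, it was 100% in both libraries and so above the members. Among genes with 2 or more transcripts and a TPM of 1 or more in each library, it was 95.3% and 96.6% for the 36 members and 92.6% and 94.6% for 6363 protein-coding genes. The leading transcript was the same in both libraries for 34 of those 36 members, against 72.6% of the 6363 genes. The exceptions were Psma3 and Psmd13. The 36 members and the 6363 genes were not matched for level in these comparisons. Of the TPM on annotated transcripts, retained introns took on average 5.47% for the 36 members in replicate 1 and 5.06% in replicate 2. For the 6363 genes they took 9.44% and 8.76%.

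**Figure D5:**
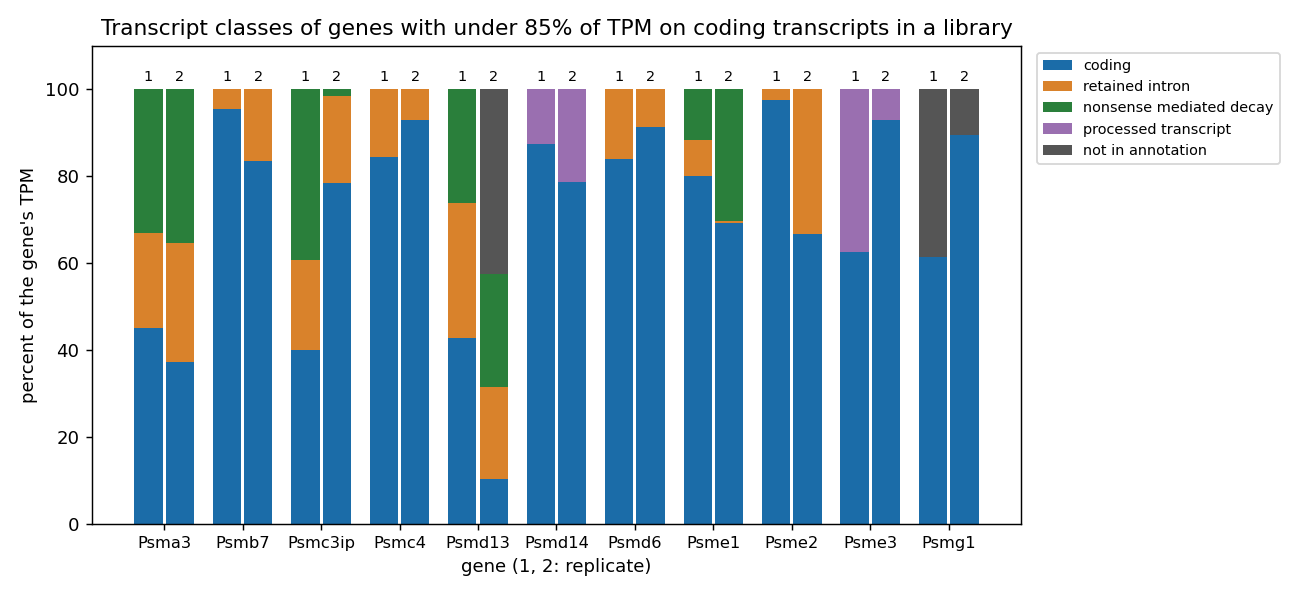
Percent of a gene's TPM on each annotated class of transcript, for the 11 proteasome genes with under 85% on coding transcripts in at least 1 library (1 and 2, replicates; not in annotation, transcripts with no match). Psmd13 shows the least coding TPM, 10.3% in replicate 2, and Psme2 and Psme3 differ between the libraries.

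A few members stood out from that pattern. Psma3, one of the highest genes over all transcripts, had 45.1% of its TPM on coding transcripts in replicate 1 and 37.3% in replicate 2. Its transcript of the nonsense-mediated decay class, Psma3-201, took 27.4% and 35.2%, and its retained-intron transcript Psma3-203 took 21.1% and 26.1%. Both libraries thus gave Psma3 less TPM on coding transcripts than on others. In Psme2, the retained-intron transcript Psme2-207 had 0 TPM in replicate 1 and 25.0 TPM in replicate 2, while the coding Psme2-208 had 54.2 and 50.7. The higher Psme2 level of replicate 2 therefore lay mostly on the retained-intron transcript. On coding transcripts only, the relative log2 ratio of Psme2 was 0.16, against 0.72 for the whole gene. In Psme3 the reverse held: the coding Psme3-201 had 29.2 in replicate 1 and 43.8 in replicate 2, and the processed transcript Psme3-203 had 17.4 and 3.48. In Psmc3ip, coding TPM was 8.40 in replicate 1 and 6.43 in replicate 2, and the decay-class transcript Psmc3ip-204 had 8.29 and 0.13. In Psmg1, transcripts with no match in the annotation took 38.7% of the TPM in replicate 1 and 10.6% in replicate 2. Its relative log2 ratio was 0.30 for the whole gene and 0.78 on coding transcripts only. These divisions come from the authors' quantification of reads that overlapping transcripts share.

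The genes that work with the proteasome were also detected. Of 24 partner genes listed, Paaf1 was not analysed here, and all 23 others reached a TPM of 1 in both libraries. Their median was 37.4 in replicate 1 and 26.6 in replicate 2, and 3 of them (Ddi2, Nfe2l1 and Psmf1) were more than 1.5-fold higher in replicate 2 relative to the median of all genes, against 10.7% of all genes. In TMM-scaled counts Psmf1 had a log2 ratio of 0.91, Ddi2 of 0.38 and Nfe2l1 of -0.01. Pomp, the maturation factor of the barrel, stood at subunit level, with 104 TPM in replicate 1 and 76.2 TPM in replicate 2. Sem1 and Adrm1, subunits without a Psm symbol, were lower than Pomp. Sem1 of the lid had 43.8 and 26.6, and the ubiquitin receptor Adrm1 had 13.8 and 16.4. Psmf1, an inhibitor of the core in biochemical assays, had 3.12 in replicate 1 and 6.62 in replicate 2. The unfolding ATPase Vcp had 71.9 and 74.6, and the deubiquitinases Usp14 and Uchl5 had 38.5 and 37.4 in replicate 1 and 22.1 and 38.8 in replicate 2. Of the transcription factors, Nfe2l2 (32.9 and 27.98) was above Nfe2l1 (7.29 and 9.88) in both libraries. Ddi2, the protease that activates Nfe2l1, had 6.64 and 9.37.

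The members were scattered over 16 chromosomes, with 10 on chromosome 11 and 6 on chromosome 14. On chromosome 14 Psmb5 lies close to Psmb11 (mm10, 54621433 to 54629556, plus strand), which had 0 counts. Psme1 (55578123 to 55581529, plus strand) lies close to Psme2 (55587441 to 55591113, minus strand). A divergent gene starting within 1000 bases of the member's own start was found for 9 of the 46 members (19.6%), against 10.9% of all protein-coding genes and 19.3% of those at a mean TPM of 10 or more. The closest was Dnajc2, 32 bases from Psmc2, with 79.0 TPM in replicate 1 and 63.9 TPM in replicate 2 beside 42.9 and 34.0 for Psmc2. Ss18l1, 76 bases from Psma7, had only 1.06 and 0.51 beside 120 and 85.3 for Psma7. A near start was thus not always matched by a similar level. Exons of a gene on the other strand overlapped those of 10 members (21.7%), against 24.3% of all protein-coding genes. Whether the counting used strand is not stated, so reads of such pairs may not have been kept apart, including Psma4, Psma5, Psmb7, Psmc3, Psmd1, Psmd3, Psmd9, Psmd13, Psme1 and Psmc3ip.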

How the data were processed

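Expected counts, TPM, FPKM, posterior mean TPM and the bounds of a TPM interval (a signal with no stated level) are the authors' deposited values, per the file headers, for each gene and transcript of both libraries. Build mm10 and annotation GENCODE M4 were used by the authors, per their deposited text files. The program that made the estimates is not stated in what was used here. Symbols, classes and coordinates came from GENCODE M21 (the same assembly), matched by ID without version: 42462 of 43346 Ensembl gene rows matched and 884 did not. Promoter windows came from RefSeq.

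The members and lists were chosen with earlier results of these data known. All members are named genes by rule, with Psmb8, Psmb9, Psmb10 and a list of partner genes. Mir686, Dnajc2 and Ss18l1 and the printed windows were chosen after their values were seen. With 1 group of 2 libraries no test was run and no p-value is given. Levels are TPM. Ratios between libraries are log2((TPM + 1)/(TPM + 1)), less the median of protein-coding genes at a mean TPM of at least 1, which understates changes of low genes. Differences were called past 1.5-fold. A count of 0 allows up to 3 counts. Alternatives were posterior mean TPM, FPKM, TPM rescaled to all nuclear protein-coding genes other than globins, other filters and pseudocounts, and expected counts rounded to whole numbers and scaled by TMM (edgeR 4.0.16) or size factors (DESeq2 1.42.0). The scaling step was tested on simulated data. R was version 4.3.3, and Python 3.11.15 ran with pandas 2.3.3, numpy 2.4.6 and, for figures, matplotlib 3.10.9. The tables hold no molecular identifiers.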

Additional observations from a re-analysis of the deposited data

How the results depend on the processing

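Directions held for every ratio under posterior mean TPM and TPM of coding transcripts only, and for each library alone. Rescaled TPM and FPKM are no check of these ratios. Each scales all genes of a library by a common factor, which cancels in a ratio within that library. The median TPM of the members moved from 47.7 to 208 with TPM rescaled to all nuclear protein-coding genes other than globins and to 120.5 as FPKM, which are other units. Their share of counts moved from 0.615% to 0.716% of counts on nuclear protein-coding genes only. The members beyond 1.5-fold between libraries numbered 6, and 1 (Psmd13) was beyond 2-fold. On coding transcripts only, the log2 ratio of PA28 alpha and beta moved from 2.34 to 2.01 over PA200, and that of Psme2 over Psme2b from 3.26 to 2.95. The other 76 recomputed values for the main results were not counted as moved, nor were 41 for pairs of genes and single items. Many of these are a weak check. Rescaled TPM and FPKM leave a ratio within a library as it was. Leaving out 1 of 2 libraries always shifts their mean by less than their SD. The shift of the members relative to all genes ranged from -0.07 to 0.04 over all settings. The SD of 0.39 over members is a spread among genes and does not measure the error of this shift. Which genes passed 1.5-fold changed with the scale: Psmb2 and Psmb5 passed at all settings, while Psmd13 and Psme2 were replaced by Psme3 in scaled counts. On the lower side Psma8 took the place of Psmg4 in rescaled TPM, with a pseudocount of 0.1 and in scaled counts. On coding transcripts only, Psme3 and Psmg1 took the places of Psmd13 and Psme2 on the higher side. In that setting Psmd13 took the place of Psmc3ip on the lower side. The setting of coding transcripts only, and the pair ratios under each setting, were chosen after seeing the data. No paired analysis was possible because the study has 1 group. Depth limits Psma8 and Psmb11 most.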
